A study of Mus musculus with 10 samples.

Results

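Excess CCN1 was compared with a control plasmid in GFP-positive cells sorted from mouse cerebral cortex at embryonic day (E) 15.5. Of the 10 bulk RNA-seq libraries of the series, 4 belong to the comparison, 2 from cortex given the plasmid PB-CCN1 and 2 from cortex given PB-Ctrl. They were chosen by their labels, not by a measured value. Transcript levels were read as counts per gene, and 15371 of 27178 gene IDs held enough counts to be tested. Both groups were wildtype embryos of ICR, an outbred strain. In each, the ventricle was injected with a PiggyBac transposase plasmid at 3 µg/µl and with PB-CCN1 or PB-Ctrl at 1.5 µg/µl, the brain was electroporated at E13.5, and the cortex was dissociated at E15.5. PiggyBac is a transposon whose transposase moves the plasmid cargo into the genome, so that it passes to the daughters of the cells lining the ventricle. A group given PB-GPC4, a plasmid for the glypican GPC4, went through the same steps in ICR. A pair of E17.5 groups came from C57BL/6 cortex that received PB-Ctrl at E14.5: wildtype (WT), and CcKO, in which Nestin-Cre, active in neural progenitors and their progeny, acts on Ccn1fl/fl. Each group has 2 libraries. The labels name no promoter on the plasmids, and they do not say whether embryos were pooled or whether the libraries of a group came from separate animals or litters. P-values therefore measure the spread between these libraries, which may be technical.

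CCN1, also called CYR61, is a matricellular protein: it is secreted, settles in the extracellular matrix, and acts through integrins and heparan sulfate proteoglycans on adhesion, migration and division. Ccn1 and its relative Ccn2 are textbook targets of the Hippo pathway effectors YAP and TAZ. In the embryonic cortex, radial glia along the ventricle divide to give intermediate progenitors and neurons, and Notch, Hedgehog, FGF and Wnt signals help to set how long they remain progenitors.

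Total counts were 25642567 and 27985945 in PB-Ctrl and 22505945 and 23514678 in PB-CCN1. Markers of radial glia, intermediate progenitors and young neurons were present in all 4 libraries: Sox2 stood between 93.5 and 103 CPM, the count scaled to library size,, Eomes between 398 and 429 CPM, and Dcx between 1276 and 1367 CPM. Markers of other cells were low. The summed level of 10 endothelial markers was 7.41 to 9.68 CPM, and that of 14 interneuron markers was 63.5 and 65.5 CPM in PB-Ctrl and 48.6 and 49.0 CPM in PB-CCN1. The 12 microglia markers summed to 7.45 and 7.90 CPM in PB-Ctrl and 5.56 and 5.87 CPM in PB-CCN1. The choroid plexus marker Ttr had 0 counts in all 4 libraries. Y-linked and X-inactivation transcripts were present in every library, and no label states whether embryos were male or female. Xist stood at 847 and 859 CPM in PB-Ctrl and at 1354 and 1407 CPM in PB-CCN1. It was among the genes called higher (1.62-fold, edgeR adjusted p = 4.54e-05), with 1731 and 1303 CPM in PB-GPC4. The part of sex in any result was not tested.

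Transcripts of lung epithelium were found in the 4 libraries of the comparison. Scgb1a1, the secretoglobin of airway club cells, held 867 and 1124 counts in PB-Ctrl and 892 and 951 counts in PB-CCN1, and 0 counts in each of the other 6 libraries. Sftpc, the surfactant protein of alveolar type II cells, held 228, 288, 234 and 224 counts in these 4 libraries and at most 4 counts elsewhere. The summed level of 14 such genes, a list drawn up after their values were seen, was 63.5 and 79.0 CPM in PB-Ctrl, 79.7 and 77.7 CPM in PB-CCN1, and 0.0853 to 0.499 CPM in the other 6 libraries. The list stood at a like level in both groups: 0 of its 13 tested genes were called between PB-CCN1 and PB-Ctrl (lowest edgeR adjusted p = 0.595). Since all 4 libraries hold these transcripts, no result could be read without them, and their part in the results was not tested.

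The plasmid's own gene was read first. Ccn1 (Entrez gene 16007, chr3:145646971-145649985 on GRCm38.p6) held 1309 and 1618 counts in PB-Ctrl and 158376 and 162522 counts in PB-CCN1. In the deposited FPKM, counts scaled by gene length and total, this is 25.2 and 28.5 FPKM against 3470 and 3408 FPKM. Ccn1 ranked 3475 and 3078 among the genes by FPKM in PB-Ctrl and 2 in both PB-CCN1 libraries, where it took 0.704% and 0.691% of all counts. The groups stood far apart, by 7.03 on the log2 scale (SE 0.13, adjusted p = 1.06e-24 by edgeR). The 2 PB-GPC4 libraries stood at 17.6 and 14.6 FPKM. Reads of the plasmid and of the endogenous gene cannot be told apart in these counts.

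Beyond Ccn1, most called differences were small, and their number depended on the libraries in the fit. By edgeR's quasi-likelihood test with Benjamini-Hochberg adjustment over all genes tested and a threshold of 0.05, 68 genes were higher (0.442% of those tested) and 115 lower (0.748%) in PB-CCN1, 183 in all (1.19%). Among genes with a mean of at least 1 CPM, the largest falls were in the heat shock genes Hspa1b and Hspa1a, and Slc7a11, a cystine transporter, was among the largest rises. Only 31 of the 183 (0.202% of genes tested) differed at least 2-fold, 33 differed 1.5- to 2-fold and 119 by less, with a median of 1.38-fold. The libraries of the 2 groups did not overlap for any of the 183, but they also did not overlap for 45.4% of all genes tested. In a principal component analysis of the 6 E15.5 libraries, the first component (29.9% of the variance) set PB-GPC4 apart from the other 4 libraries. The second (22.1%) held PB-Ctrl at 23.2 and 21.6, PB-GPC4 at 0.320 and 3.53, and PB-CCN1 at -20.6 and -28.1. Fewer genes were called when a PB-Ctrl library was left out (56 without replicate 1, 61 without replicate 2) or a PB-CCN1 library was left out (74 and 72), and more when a CcKO library was left out (282 and 283). A fit of the 6 E15.5 libraries alone called 226 genes higher and 311 lower, and 1 of the 4 libraries alone 270 and 362. The genes Ccn1, Hspa1b, Hspa1a, Zfp33b, Padi4, Lypd10, Ccn2, Tnc, Myc, Rps2, Rpl21 and Sh3gl2 were called under each of the 19 alternative settings tried for single genes.

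**Figure D1:**
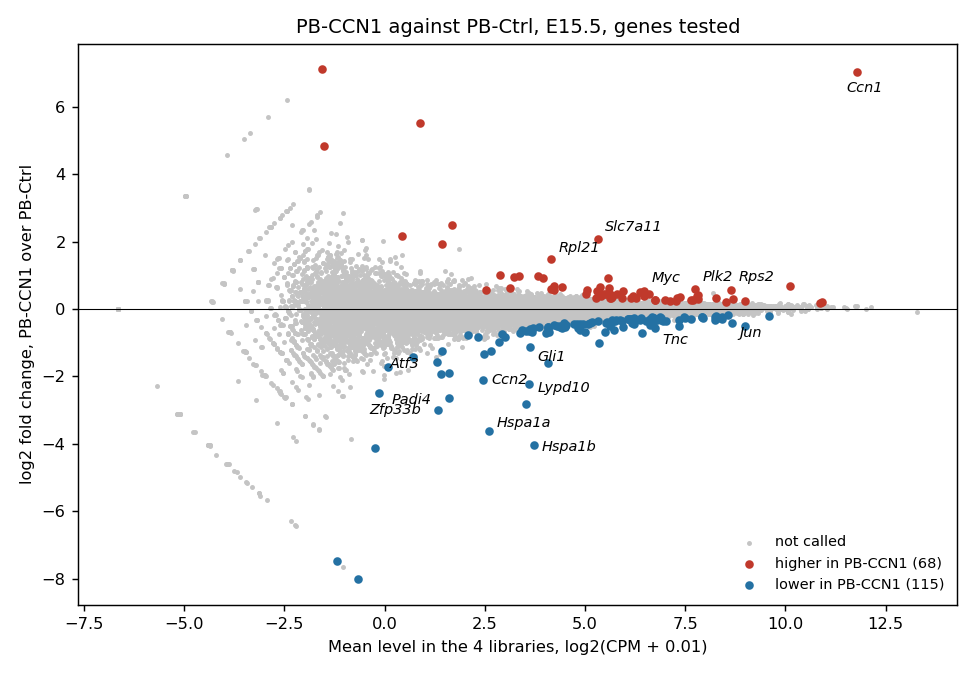
Each point is 1 of the 15371 genes tested: the mean level in the 4 libraries on the x axis, as log2(CPM + 0.01), against the log2 fold change of PB-CCN1 over PB-Ctrl on the y axis. Red points are the 68 genes called higher and blue points the 115 called lower; apart from Ccn1 at 7.03, most called genes of high level lie close to 0.

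The rest of the CCN family was low or fell. Ccn2, a matricellular relative of CCN1 and a YAP target, stood at 8.49 and 9.14 CPM in PB-Ctrl and at 2.60 and 1.47 CPM in PB-CCN1. Both PB-CCN1 libraries were below both controls, a fall of 4.34-fold (log2 fold change -2.12, SE 0.28, edgeR adjusted p = 2.94e-05). The PB-GPC4 libraries were also low, at 2.73 and 3.02 CPM. Ccn3, Ccn4 and Ccn6 stood between 0.259 and 1.2 CPM in every one of the 4 libraries and did not pass, and Ccn5 was too low to test. Apart from Ccn1 and Ccn2, 0 of the other 17 tested genes of the YAP and Hippo list were called. Their list median, Ccn1 and Ccn2 included, was -0.07 on the log2 scale, against 0.01 for all genes.

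The molecules that bind CCN1 did not pass. Of 19 tested integrins, syndecans, glypicans and LRP receptors, 0 were called in either direction, and the median log2 fold change was -0.04. Itgav, an integrin subunit through which CCN1 acts on several cell types, stood at 21.2 and 22.7 CPM in PB-Ctrl and 18.8 and 18.2 CPM in PB-CCN1 (log2 fold change -0.25, edgeR adjusted p = 0.447). Itgb1, the common beta integrin, stood at 168, 158, 160 and 169 CPM, with overlapping groups. Lrp1, a large endocytic receptor, stood at 588, 592, 609 and 584 CPM, also with overlap. Gpc4 had 70.6 and 66.1 CPM in PB-Ctrl and 72.4 and 73.7 CPM in PB-CCN1 (adjusted p = 0.431).

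Radial glia genes were lower in part. Of 24 tested, 4 fell (Tnc, Nes, Slc1a3 and Id4), 0 rose and 20 did not pass, with a list median of -0.13 and 19 of 24 fold changes below 0. For this and later lists, 7435 of all 15371 genes had fold changes below 0 and 7923 above. Of all genes, 0.748% were called lower and 0.442% higher. Tnc, tenascin C of the radial glia matrix, stood at 129 and 128 CPM in PB-Ctrl and at 86.3 and 88.1 CPM in PB-CCN1. It was lower in both PB-CCN1 libraries, by 1.48-fold (log2 fold change -0.56, SE 0.07, edgeR adjusted p = 6.49e-06). Id4, a dominant-negative helix-loop-helix protein, fell 1.32-fold from 58.2 and 58.5 CPM to 43.0 and 45.5 CPM. Nes, the progenitor filament nestin, fell 1.25-fold, from 131 and 133 CPM to 106 and 105 CPM. Slc1a3, the glial glutamate transporter GLAST, fell 1.23-fold, from 74.3 and 78.9 CPM to 62.3 and 62.6 CPM. Sox2, Pax6 and Fabp7, which define radial glia, had log2 fold changes of -0.07, -0.12 and -0.15 and did not pass. The calls of Nes, Id4 and Slc1a3 were each lost on leaving out any 1 of the 4 libraries.

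Called genes of the matrix and astrocyte lists were also lower. Bcan, a brain chondroitin sulfate proteoglycan, stood at 27.5 and 25.9 CPM in PB-Ctrl and 20.2 and 16.5 CPM in PB-CCN1, a fall of 1.46-fold (edgeR adjusted p = 0.0198). With Tnc it made 2 falls and 0 rises among 27 matrix and adhesion genes. In PB-GPC4, Bcan was lower still, at 14.2 and 12.1 CPM. Gja1, the gap junction protein connexin 43, fell 1.98-fold from 9.61 and 9.57 CPM to 4.48 and 5.17 CPM (adjusted p = 0.0226), as the 1 called gene of 9 on the astrocyte list. The call of Gja1 was lost on leaving out any 1 of the 4 libraries, and that of Bcan on leaving out either PB-Ctrl library or PB-CCN1 replicate 2. Adamts1, a secreted metalloprotease chosen after its values were seen, fell 1.47-fold from 32.8 and 34.5 CPM to 23.3 and 22.6 CPM. The PB-GPC4 libraries stood lower still, at 13.3 and 11.8 CPM, and the direct test put PB-CCN1 above them (log2 fold change 0.87, adjusted p = 2.93e-05). Of 19 genes of heparan sulfate synthesis and editing, 0 were called.

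Hedgehog genes gave the lowest median of the signalling lists. Hedgehog ligands bind PTCH1, helped by the co-receptors GAS1, CDON and BOC, which frees SMO and activates the GLI factors. Of 16 tested genes, 4 fell (Gli1, Gas1, Ccnd1 and Gli3) and 0 rose, 15 had fold changes below 0, and the median was -0.28. Gli1, both a factor and a direct target of the pathway, stood at 17.3 and 16.3 CPM in PB-Ctrl and at 7.58 and 7.89 CPM in PB-CCN1. Both PB-CCN1 libraries were below both controls, by 2.17-fold (log2 fold change -1.12, SE 0.18, edgeR adjusted p = 0.000425). Gas1 fell 1.26-fold, from 78.3 and 83.6 CPM to 65.3 and 62.9 CPM. Gli3, mainly a repressor in the cortex, fell 1.21-fold, from 110 and 118 CPM to 89.3 and 99.6 CPM. The calls of Gas1, Ccnd1 and Gli3 were each lost on leaving out any 1 of the 4 libraries, and that of Gli3 also once a trend with gene length and GC content was removed. Among the members that did not pass, the target Ptch1 stood at 23.2 and 20.1 CPM in PB-Ctrl and 14.8 and 17.8 CPM in PB-CCN1 (adjusted p = 0.148), and the target and inhibitor Hhip at 1.62 and 1.35 CPM against 0.0896 and 0.431 CPM (adjusted p = 0.0866). Smo, Gli2 and Boc had log2 fold changes of -0.09, -0.07 and -0.18, and Cdon of 0.05. Shh and Dhh were too low to test. In PB-GPC4, Gli1 stood at 9.28 and 8.60 CPM, close to PB-CCN1 (log2 fold change of PB-CCN1 over PB-GPC4 -0.21, adjusted p = 0.679). Gas1 stood there at 59.7 and 54.2 CPM, and Gli3 at 91.04 and 94.15 CPM.

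Of 22 Notch genes, the receptors Notch2 and Notch1 fell and 20 did not pass. Notch2 stood at 86.9 and 85.0 CPM in PB-Ctrl and at 67.0 and 60.4 CPM in PB-CCN1, lower in both by 1.35-fold (edgeR adjusted p = 0.012). Notch1 fell 1.21-fold, from 200 and 197 CPM to 168 and 160 CPM (adjusted p = 0.0164). Both PB-GPC4 libraries held 54.2 CPM of Notch2, and Notch1 stood there at 169.7 and 161.3 CPM. The call of Notch1 was lost with the length and GC trend removed and on leaving out any 1 of the 4 libraries, and that of Notch2 on leaving out either PB-Ctrl library or PB-CCN1 replicate 2. The effectors did not pass: Hes1 stood at 13.3 and 11.2 CPM against 9.19 and 8.23 CPM, without overlap, and Hes5 at 15.4 and 17.8 CPM against 17.7 and 14.9 CPM, with overlap. In the Wnt list 2 of 22 genes rose and 0 fell, while 15 had fold changes below 0 and the median was -0.12. Nkd1, a feedback inhibitor of Wnt signalling, rose 1.45-fold, from 48.2 and 53 CPM to 73.4 and 73.3 CPM (adjusted p = 0.000197), and the ligand Wnt7b rose 1.25-fold, a call lost without PB-Ctrl replicate 1 or PB-CCN1 replicate 1. The canonical target Axin2 did not pass, at 31.6 and 33.1 CPM against 27.6 and 23.8 CPM (adjusted p = 0.155). In the BMP, TGF-beta and ID list, Id4 and the receptor Bmpr1a fell, and 24 of 26 did not pass; the call of Bmpr1a was lost on leaving out any 1 of the 6 E15.5 libraries. Of 18 FGF and ERK genes 0 were called; the receptor Fgfr2 came nearest, at 81.0 and 75.0 CPM against 65.2 and 64.3 CPM (adjusted p = 0.0594).

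**Figure D2:**
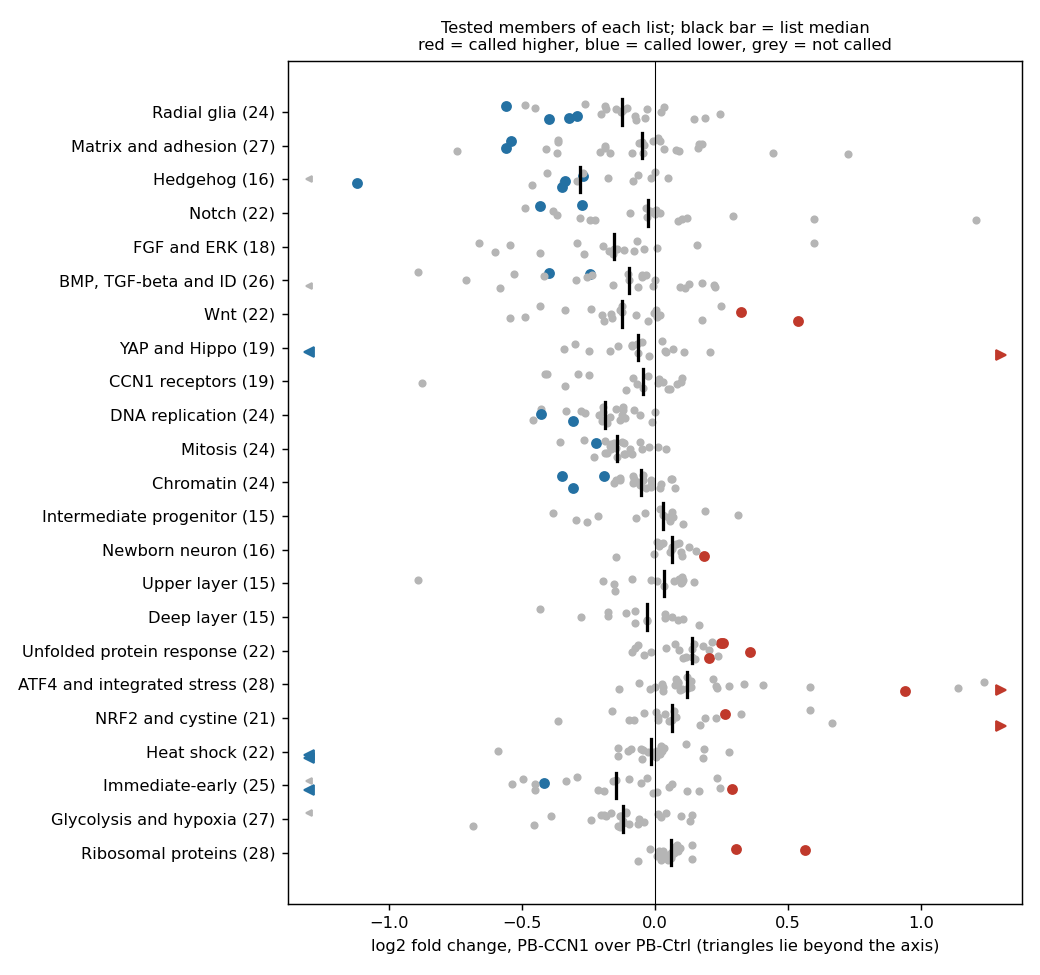
Rows are gene lists, with the number of tested members in brackets, and each point is the log2 fold change of 1 member for PB-CCN1 over PB-Ctrl; the vertical spread within a row is only for legibility. The black bar is the list median: it lies at -0.28 for Hedgehog and -0.19 for DNA replication, and at 0.14 for the unfolded protein response and 0.12 for ATF4 targets.

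A few cell cycle genes fell, and most did not pass. All 24 tested DNA replication genes had fold changes below 0, with a median of -0.19, and 2 of them were called. Of all 15371 genes tested, 7435 had fold changes below 0 and 0.748% were called lower. Pole, the catalytic subunit of the leading-strand polymerase, stood at 52.7 and 52.0 CPM in PB-Ctrl and 38.6 and 39.3 CPM in PB-CCN1, a fall of 1.35-fold (edgeR adjusted p = 0.00644). Mcm3, a subunit of the replicative helicase, fell 1.24-fold, from 78.7 and 77.1 CPM to 62.4 and 63.5 CPM (adjusted p = 0.0211). Among 24 mitosis genes, 22 had fold changes below 0 and 1 was called: Top2a, the topoisomerase of dividing cells, fell 1.17-fold from 262 and 264 CPM to 226 and 224 CPM. In PB-GPC4, Top2a stood at 292 and 288 CPM, and PB-CCN1 was lower than it as well (log2 fold change -0.37, adjusted p = 9.13e-05). Pole and Mcm3, by contrast, were below both PB-Ctrl libraries in PB-GPC4 too, at 42.3 and 39.3 CPM and at 68.6 and 68.3 CPM. The list of 16 G1 regulators had 1 fall, 1 rise, 9 fold changes above 0 and a median of 0.01. Of these, Ccnd1, the G1 cyclin, fell 1.27-fold, from 66.6 and 68.8 CPM to 51.4 and 54.8 CPM. Chosen after their values were seen, the S-phase kinase Cdk2, the thymidine kinase Tk1 and the cyclin Ccnf fell 1.35-, 1.37- and 1.46-fold. For Ccnd1, Cdk2, Tk1 and Ccnf, both PB-GPC4 libraries were also below both PB-Ctrl libraries. Myc, a growth-promoting transcription factor, was the G1 list's rise. It stood at 72.3 and 73.3 CPM in PB-Ctrl and at 102 and 108 CPM in PB-CCN1, higher in both libraries by 1.45-fold (log2 fold change 0.53, SE 0.07, adjusted p = 1.53e-05). The falls of Pole, Mcm3, Top2a and Ccnd1 were each lost on leaving out any 1 of the 4 libraries. In bulk samples, fewer cells of a type and less RNA per cell cannot be told apart, here and for the progenitor genes above.

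The neuronal identity lists held 1 called gene. Of 15 intermediate progenitor, 15 upper layer and 15 deep layer genes, 0 were called; Eomes, the intermediate progenitor factor, stood at 422 and 429 CPM in PB-Ctrl and 411 and 398 CPM in PB-CCN1. Of 16 newborn neuron genes 14 had fold changes above 0, with a median of 0.06, and 1 was called: the tubulin Tubb2b rose 1.14-fold, from 1764 and 1747 CPM to 1985 and 2006 CPM (edgeR adjusted p = 0.0273). Tubb2b has close paralogs, and the call was lost on leaving out any 1 of the 4 libraries. In PB-GPC4, Tubb2b stood at 1980 and 1928 CPM, close to PB-CCN1 (PB-CCN1 over PB-GPC4 0.03, edgeR adjusted p = 0.822). Among the 15 largest called rises with a mean of at least 1 CPM, Tppp, a tubulin polymerisation-promoting protein, stood at 11.7 and 9.71 CPM in PB-Ctrl and at 20.8 and 19.8 CPM in PB-CCN1, a rise of 1.90-fold (adjusted p = 0.000207). Dner, a transmembrane protein with EGF-like repeats, rose 1.55-fold, from 37.1 and 39.2 CPM to 57.7 and 60.6 CPM. Sh3gl2, endophilin A1 of synaptic vesicle endocytosis, rose 1.58-fold, from 16.3 and 17.2 CPM to 26.2 and 26.9 CPM. All 3 were also above PB-GPC4 in the direct test, by 0.65, 0.42 and 0.38 on the log2 scale (adjusted p = 0.00815, 0.0116 and 0.0478). Shisa6, an AMPA receptor auxiliary subunit, rose 1.59-fold, from 15.7 and 13.0 CPM to 22.3 and 23.2 CPM, a call lost without PB-Ctrl replicate 2 or either PB-CCN1 library. In the other direction, Unc5c, a netrin receptor, was the 1 called gene of 30 on the axon guidance list: it stood at 3.78 and 3.76 CPM in PB-Ctrl and 1.57 and 1.59 CPM in PB-CCN1, a fall of 2.38-fold (adjusted p = 0.00158). Cacng5, another AMPA receptor auxiliary subunit, also fell 2.38-fold, from 6.83 and 10.9 CPM to 4.03 and 3.45 CPM, a call lost without PB-Ctrl replicate 2. Both PB-GPC4 libraries were also below both PB-Ctrl libraries, at 2.261 and 2.165 CPM for Unc5c and 6.005 and 5.085 CPM for Cacng5. Of 13 tested interneuron genes 0 were called; their median log2 fold change was -0.60, and Lhx6 stood at 6.48 and 7.55 CPM against 3.14 and 4.74 CPM (adjusted p = 0.0606).

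Amino acid transporters included the largest called rise, after Ccn1, of a gene whose PB-CCN1 mean was above 10 CPM. Slc7a11 (Entrez gene 26570, chromosome 3), the cystine/glutamate exchanger that feeds glutathione synthesis, stood at 14.3 and 16.1 CPM in PB-Ctrl and at 67.3 and 62.1 CPM in PB-CCN1. Both PB-CCN1 libraries were above both controls, by 4.25-fold (log2 fold change 2.09, SE 0.21, edgeR adjusted p = 3.29e-07), and the call was lost with DESeq2 (adjusted p = 0.0869). In PB-GPC4, Slc7a11 was higher still, at 113 and 82.2 CPM (PB-CCN1 over PB-GPC4 -0.59, adjusted p = 0.102). Slc7a3, a cationic amino acid transporter, rose 1.92-fold, from 6.37 and 6.56 CPM to 12.3 and 12.5 CPM (adjusted p = 0.00352), with 11.8 and 12.8 CPM in PB-GPC4. Slc7a5, the large neutral amino acid transporter LAT1, rose 1.2-fold, from 97.0 and 99.4 CPM to 113 and 123 CPM. Slc1a5, the neutral amino acid transporter ASCT2, was chosen after its values were seen and fell 1.79-fold, from 10.8 and 9.68 CPM to 5.83 and 5.6 CPM (adjusted p = 0.0148). The call of Slc7a5 was lost on leaving out any 1 of the 6 E15.5 libraries, and that of Slc7a3 on leaving out either PB-Ctrl library or PB-CCN1 replicate 2. Slc7a11 and Slc7a5 were the 2 called genes among 21 of the NRF2 and cystine list. Its antioxidant members did not pass, such as Gclm at 20.9 and 21.6 CPM against 21.6 and 18.6 CPM, and Hmox1 at 2.58 and 2.66 CPM against 3.5 and 3.06 CPM.

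A few genes of endoplasmic reticulum stress and of the integrated stress response rose. The unfolded protein response raises chaperones through ATF6 and XBP1, and the kinase PERK leads to ATF4, which raises genes of amino acid supply. Of 22 unfolded protein response genes 4 rose (Hspa5, Herpud1, Manf and Calr) and 0 fell, with a median of 0.14 and 17 of 22 fold changes above 0. Of all 15371 genes tested, 7923 had fold changes above 0 and 0.442% were called higher. Hspa5, the chaperone BiP, stood at 467 and 459 CPM in PB-Ctrl and at 550 and 548 CPM in PB-CCN1, higher in both by 1.19-fold (log2 fold change 0.25, SE 0.04, edgeR adjusted p = 0.00188). Herpud1, which acts in degradation of misfolded proteins, rose 1.28-fold, from 41.1 and 48.1 CPM to 56.7 and 57.7 CPM. Manf, a secreted stress-induced factor, rose 1.19-fold, and Calr, the chaperone calreticulin, 1.15-fold (adjusted p = 0.0433 and 0.0485). Of 28 ATF4 and integrated stress genes, Slc7a11 and Slc7a3 rose, 0 fell, and 24 had fold changes above 0, with a median of 0.12. The targets Trib3, Asns and Chac1 did not pass: Trib3 stood at 0.772 and 1.49 CPM against 2.69 and 2.33 CPM, and Asns at 25.3 and 26.6 CPM against 33.0 and 35.7 CPM (adjusted p = 0.2 and 0.0572). PB-GPC4 stood at or above PB-CCN1 for several of these genes, with Hspa5 at 581 and 585 CPM and Herpud1 at 67.1 and 76.5 CPM, the latter above PB-CCN1 in the direct test (adjusted p = 0.0297). The calls of Manf and Calr were lost on leaving out any 1 of the 4 libraries, that of Hspa5 on leaving out either PB-Ctrl library, and that of Herpud1 on leaving out PB-Ctrl replicate 1 or either PB-CCN1 library.

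The promoters of called stress genes were read for the elements these pathways are known for. RefSeq windows on GRCm38.p6, from 250 bases before to 50 bases after an annotated start, were searched on both strands for the endoplasmic reticulum stress response element, CCAAT and CCACG with 9 bases of any kind between them, and for the C/EBP-ATF response element that ATF4 binds, TGATGNAA. The windows shown hold 1 kind of motif each, so no matches of different kinds overlap in them. The first was in 0.119% of all 32851 windows and in 8 of the 19 windows of unfolded protein response genes (42.1%), among them Hspa5 and Calr. The second was in the windows of 4.51% of all genes and of 8 of the 24 ATF4 list genes that have one (33.3%), among them Slc7a11, which holds a pair of matches on opposite strands. Of the genes called higher with a window, 53 in all, 2 held the first element and 3 the second (Slc7a11, Herpud1 and Lancl1), and for the second this share of 5.66% was close to that of all genes. Of the 76 genes called lower with a window, 1 held the first (Xlr3b) and 2 the second (Ank2 and Atf3). A search for a heat shock element, GAA, TTC and GAA with 2 bases of any kind between neighbours, matched 0 of the 53 genes called higher and 1 of the 76 called lower (Ahcy), against 0.662% of all genes. It matched 4 of the 17 heat shock list genes with a window (23.5%). These were Chordc1, Hspd1, Hspe1 and Hsph1, not the called genes Hspa1a and Hspa1b. The pattern allowed no mismatch, so a lack of a match does not show that the element is absent. A match is a description of the letters, not of binding. The windows of the 4 called genes of the stress lists with matches are shown 5′ to 3′ on the gene's strand, with matches in capitals: Hspa5 at chr2:34771840-34772139 on the plus strand, Calr at chr8:84846882-84847181 on the minus strand, Slc7a11 at chr3:50443564-50443863 on the minus strand, and Herpud1 at chr8:94386179-94386478 on the plus strand.
Hspa5: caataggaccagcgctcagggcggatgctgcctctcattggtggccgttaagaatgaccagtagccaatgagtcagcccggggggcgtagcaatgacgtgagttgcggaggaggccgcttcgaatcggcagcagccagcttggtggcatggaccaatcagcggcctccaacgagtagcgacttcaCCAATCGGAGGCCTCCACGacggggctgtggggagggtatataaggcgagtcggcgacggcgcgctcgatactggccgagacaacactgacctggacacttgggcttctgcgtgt
Calr: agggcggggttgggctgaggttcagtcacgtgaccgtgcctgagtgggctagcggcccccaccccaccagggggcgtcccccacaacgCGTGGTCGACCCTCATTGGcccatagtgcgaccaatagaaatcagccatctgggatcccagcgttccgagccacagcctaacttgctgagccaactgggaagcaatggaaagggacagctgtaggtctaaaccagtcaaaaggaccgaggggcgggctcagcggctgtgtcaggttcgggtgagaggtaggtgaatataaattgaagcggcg
Slc7a11: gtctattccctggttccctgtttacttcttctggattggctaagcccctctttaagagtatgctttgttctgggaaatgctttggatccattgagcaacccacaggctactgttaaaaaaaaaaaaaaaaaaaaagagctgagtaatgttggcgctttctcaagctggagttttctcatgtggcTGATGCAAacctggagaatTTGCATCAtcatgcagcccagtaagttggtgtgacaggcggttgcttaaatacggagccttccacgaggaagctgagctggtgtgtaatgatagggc
Herpud1: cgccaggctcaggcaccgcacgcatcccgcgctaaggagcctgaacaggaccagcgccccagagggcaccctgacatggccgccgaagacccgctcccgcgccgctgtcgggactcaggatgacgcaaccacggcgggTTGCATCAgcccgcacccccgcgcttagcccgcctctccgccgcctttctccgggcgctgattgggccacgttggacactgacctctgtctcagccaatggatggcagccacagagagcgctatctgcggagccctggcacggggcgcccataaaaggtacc

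The motif matches in Hspa5 and Calr began 65 and 162 bases before the start, and those in Slc7a11 66 and 47 bases before it. In Herpud1 the match began 112 bases before the start. Manf, Slc7a3 and Slc7a5 were not searched.

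**Figure D3:**
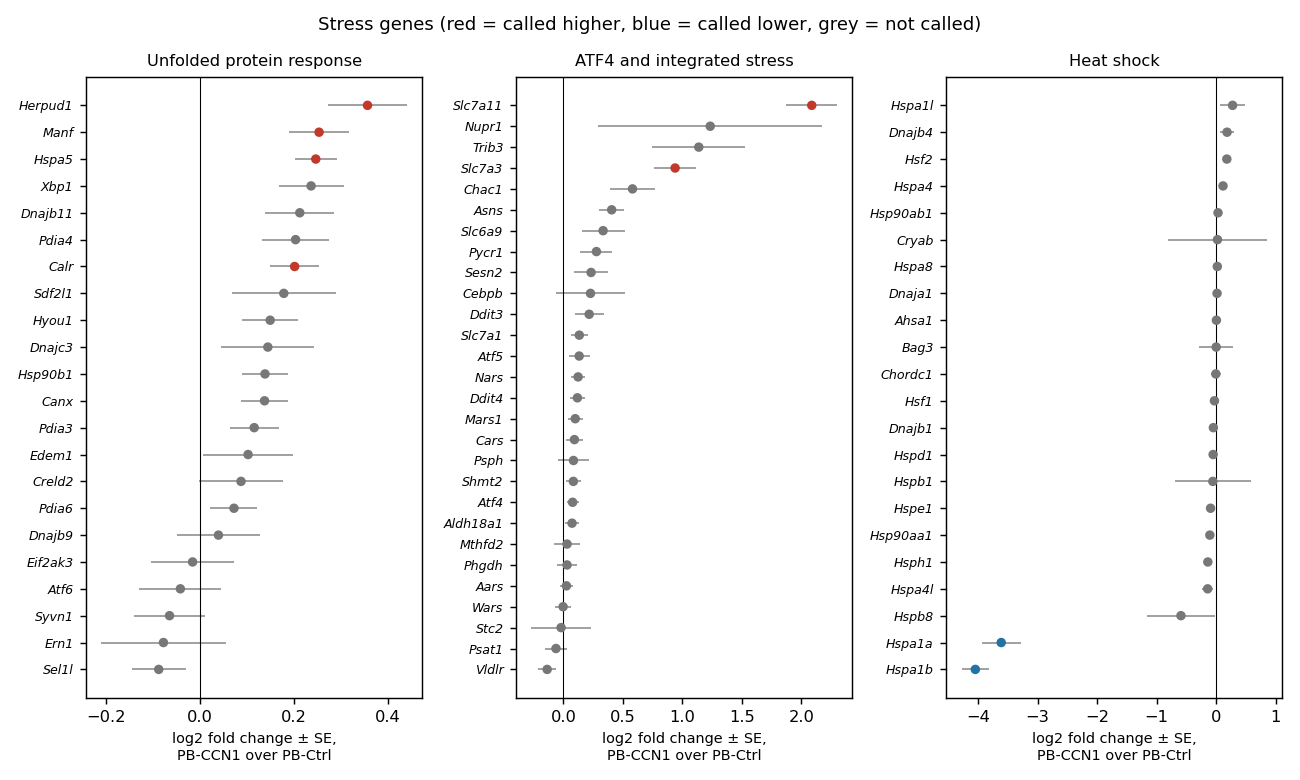
Each row is a tested gene of 3 stress lists, with its log2 fold change for PB-CCN1 over PB-Ctrl and its standard error as a bar; the 3 panels have different x scales. Most unfolded protein response and ATF4 genes lie above 0 with few called, while in the heat shock list Hspa1a and Hspa1b alone were called.

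Heat shock genes split sharply. Hspa1b and Hspa1a, neighbouring genes of chromosome 17 for the inducible chaperone HSP70, were the only called members of a list of 22 and had its largest falls. For Hspa1b, levels were 26.5 and 23.7 CPM in PB-Ctrl and at 1.25 and 1.77 CPM in PB-CCN1, a fall of 16.5-fold (log2 fold change -4.04, SE 0.23, edgeR adjusted p = 2.05e-12). Hspa1a stood at 10.6 and 12 CPM against 0.896 and 0.948 CPM, a fall of 12.2-fold (adjusted p = 3.82e-08). The other 6 libraries of the series were low as well, between 1.67 and 3.80 CPM for Hspa1b and between 0.714 and 2.06 CPM for Hspa1a, so that the 2 PB-Ctrl libraries stood apart from the 8 others. The 2 genes are near-identical copies, with 296 of 300 bases the same in their promoter windows, and reads may be split between them. The constitutive Hspa8 stood at 960, 951, 970 and 969 CPM, and Hsp90aa1 and Hsph1 had log2 fold changes of -0.10 and -0.14 and did not pass.

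Immediate-early genes moved in both directions. Jun, a subunit of the AP-1 factor, stood at 469 and 464 CPM in PB-Ctrl and at 353 and 346 CPM in PB-CCN1, a fall of 1.33-fold (edgeR adjusted p = 0.000211), with 286 and 264 CPM in PB-GPC4. Atf3, a stress-induced factor, fell 2.98-fold, from 3.24 and 4.11 CPM to 1.34 and 1.12 CPM (adjusted p = 0.0225). Fos, the partner of Jun in AP-1, rose 1.22-fold, from 363 and 377 CPM to 463 and 441 CPM (adjusted p = 0.0284). The calls of Atf3 and Fos were lost on leaving out any 1 of the 4 libraries, and that of Fos also with DESeq2. For Fos, PB-GPC4 was at 318 and 259 CPM, below PB-CCN1 in the direct test (log2 fold change 0.65, adjusted p = 4.96e-07). The list of 25 had a median of -0.15, and Egr1 and Junb did not pass (adjusted p = 0.0596 and 0.0572). Plk2, an activity- and stress-induced kinase on the p53 target list, stood at 173 and 168 CPM in PB-Ctrl and at 257 and 260 CPM in PB-CCN1. Both PB-CCN1 libraries were higher, by 1.52-fold (log2 fold change 0.60, SE 0.07, adjusted p = 9.39e-06). PB-GPC4, at 168 and 135 CPM, was also below PB-CCN1 (log2 fold change 0.77, adjusted p = 6.17e-08). The other 20 tested p53 targets did not pass, including Cdkn1a with a log2 fold change of 0.29 (adjusted p = 0.5). Plk2 stood highest at E17.5, at 304 to 357 CPM.

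**Figure D4:**
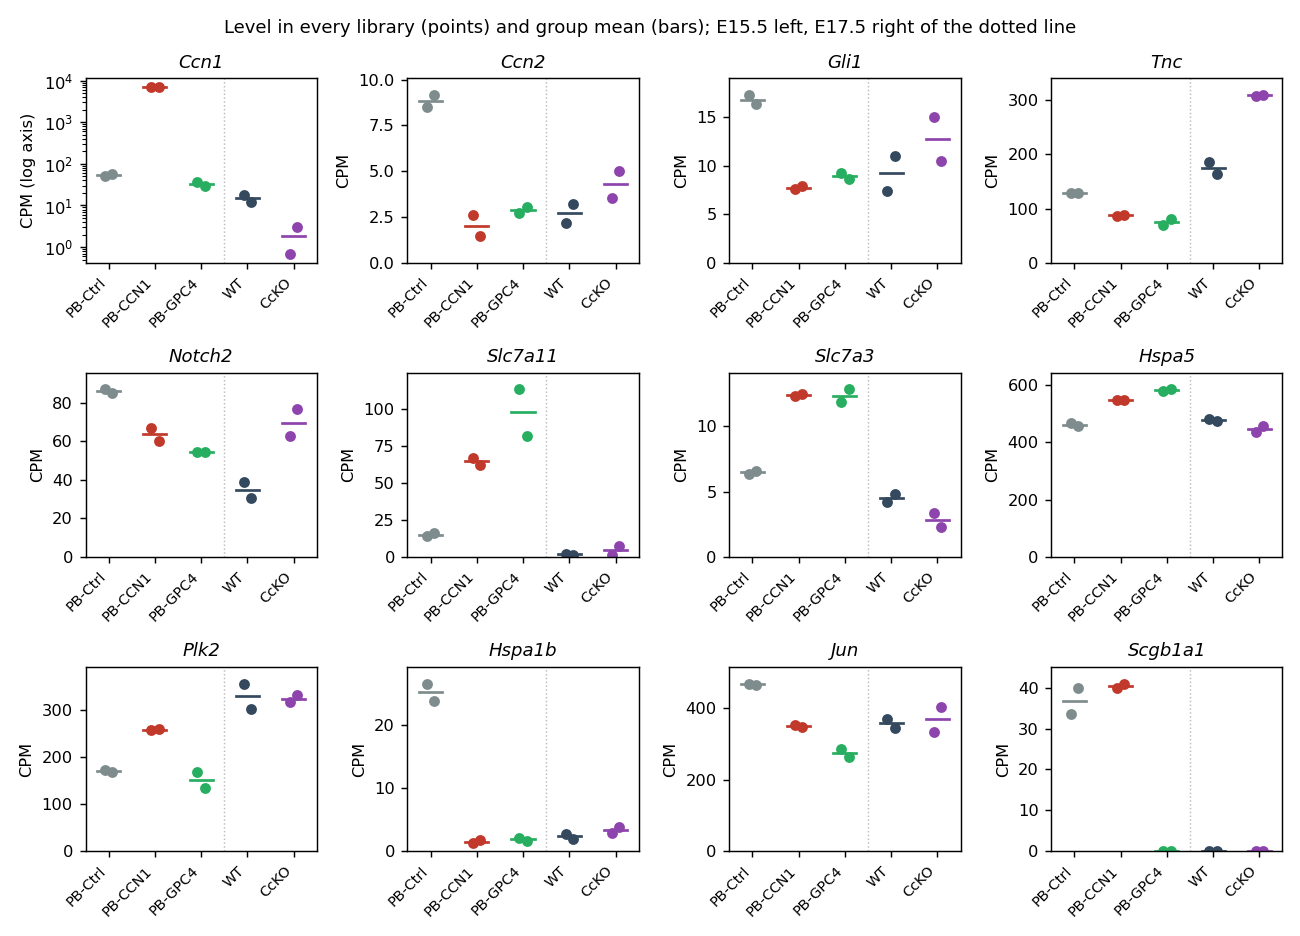
Levels in every library (points) and group means (bars) for 12 genes, in CPM, on a linear axis from 0 except for Ccn1, whose axis is logarithmic. For Ccn2, Gli1, Tnc, Notch2, Slc7a11, Slc7a3, Hspa5, Hspa1b and Jun the PB-Ctrl libraries stand apart from both other E15.5 groups. For Plk2 the PB-CCN1 libraries do, and Scgb1a1 is present in PB-Ctrl and PB-CCN1 alone.

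A pair of genes of the methionine cycle, chosen after their values were seen, fell. Mat2a makes S-adenosylmethionine, the cell's methyl donor, and Ahcy clears its product S-adenosylhomocysteine. Mat2a stood at 189 and 190 CPM in PB-Ctrl and at 130 and 139 CPM in PB-CCN1, a fall of 1.41-fold (edgeR adjusted p = 2.55e-05). Ahcy fell 1.54-fold, from 63.3 and 64.5 CPM to 42.7 and 40.3 CPM (adjusted p = 9.97e-06). In PB-GPC4 both libraries held 140 CPM of Mat2a, and Ahcy stood at 54.0 and 52.6 CPM, between the other groups and above PB-CCN1 (adjusted p = 0.00897).

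Chromatin genes were called lower at high levels and small folds. Of 24 tested, the histone methyltransferases Kmt2d and Kmt2a and the remodeller Chd7 fell, 0 rose, and the median was -0.05. Kmt2d stood at 375 and 385 CPM in PB-Ctrl and at 307 and 306 CPM in PB-CCN1, a fall of 1.24-fold (edgeR adjusted p = 0.000781). Chd7 fell 1.27-fold, from 124 and 114 CPM to 93.7 and 93.3 CPM. In PB-GPC4, Kmt2d stood at 289.5 and 297.3 CPM, and Chd7 at 89.8 and 94.0 CPM. Kmt2a fell 1.14-fold, and its call was lost with the length and GC trend removed and on leaving out any 1 of the 6 E15.5 libraries. The call of Chd7 was lost without PB-Ctrl replicate 1 or either PB-CCN1 library. Long genes were slightly lower in PB-CCN1: the median log2 fold change was 0.03 for the 1538 shortest genes and -0.04 for the 1537 longest. Among 19 imprinted genes, the zinc finger gene Plagl1 fell 1.25-fold, from 182 and 177 CPM to 147 and 140 CPM (adjusted p = 0.0106), and 18 did not pass. The call of Plagl1 was lost on leaving out any 1 of the 4 libraries. In PB-GPC4, Plagl1 stood at 130.5 and 138.4 CPM.

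Ribosomal protein genes mostly had small fold changes above 0. Of 28 on the list 2 were called higher and 0 lower, with a median of 0.06. Fold changes were above 0 for 26 of the 28, against 7923 of 15371 for all genes tested. Rps2 stood at 327 and 317 CPM in PB-Ctrl and at 490 and 462 CPM in PB-CCN1, a rise of 1.48-fold (edgeR adjusted p = 2.2e-07), with 427 and 499 CPM in PB-GPC4. Rpl30 rose 1.24-fold, from 200 and 205 CPM to 254 and 246 CPM, a call lost without either PB-Ctrl library or PB-CCN1 replicate 1. Outside the list, Rpl21 rose 2.79-fold, from 9.84 and 9.04 CPM to 27.4 and 25.3 CPM (adjusted p = 4.53e-12), while PB-GPC4 stood at 9.20 and 9.61 CPM. Its level at E17.5 was 185 to 285 CPM. Rpl35a rose 1.90-fold, from 33.8 and 31.7 CPM to 60.7 and 63.7 CPM. Ribosomal protein genes have many processed pseudogenes that can share their reads. The pseudogene Rpl15-ps6 fell 3.02-fold, from 26.0 and 24.7 CPM to 7.35 and 9.44 CPM, a call lost with DESeq2 and without PB-CCN1 replicate 1.

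Several of the largest falls were in genes of low level. Lypd10 stood at 21.2 and 18.7 CPM in PB-Ctrl, 3.85 and 4.61 CPM in PB-CCN1 and 15.2 CPM in both PB-GPC4 libraries, and at 0 counts in all 4 E17.5 libraries. PB-CCN1 was lower than PB-Ctrl by 4.71-fold (edgeR adjusted p = 1.11e-08) and lower than PB-GPC4 (log2 fold change -1.84, adjusted p = 2.23e-07). Padi4, a peptidylarginine deiminase, stood at 5.55 and 5 CPM against 1.17 and 0.517 CPM, a fall of 6.27-fold, with 4.05 and 4.26 CPM in PB-GPC4. Zfp33b, a zinc finger gene, stood at 4.40 and 4.5 CPM against 0.627 and 0.474 CPM, a fall of 8.04-fold, with 2.5 and 2.46 CPM in PB-GPC4 and 8.88 to 13.0 CPM at E17.5. PB-CCN1 was below PB-GPC4 for both (adjusted p = 0.00223 and 0.000103). Whether the outbred ICR embryos of the groups differed in alleles of these genes was not tested. Zfp984 fell 2.71-fold, and Prss22, a serine protease, 3.82-fold from 3.94 and 4.5 CPM to 1.25 and 0.948 CPM. Rgs4, a regulator of G protein signalling, fell 3.32-fold, from 1.31 and 1.91 CPM to 0.538 and 0.431 CPM. Among rises at low level, Dab2, an endocytic adaptor, went from 0.540 and 0.425 CPM to 1.97 and 2.41 CPM (4.52-fold, adjusted p = 0.0112), Srp54a from 1.16 and 1.06 CPM to 4.93 and 3.62 CPM, Trim66 from 4.78 and 4.93 CPM to 9.05 and 10.5 CPM, and Slc35e4 from 6.17 and 7.69 CPM to 14.7 and 12.5 CPM. H2bc4, a histone gene with close copies, rose 1.54-fold (adjusted p = 0.0477), a call lost under 10 of 19 alternatives. The calls of Rgs4 and Prss22 were lost on leaving out any 1 of the 4 libraries, those of Dab2, Srp54a, Trim66, Zfp984 and Hbb-b1 on leaving out either PB-Ctrl library or 1 PB-CCN1 library, and that of Slc35e4 without replicate 1 of either group. Rgs4 was also lost with the E15.5 libraries or the 4 libraries alone, and Zfp984 without either WT library. Srp54a and Zfp984 belong to families of close copies, which reads may share. Hbb-b1, a beta globin of red blood cells with a close copy, fell 2.51-fold from 8.37 and 7.55 CPM to 3.63 and 2.71 CPM (adjusted p = 0.0114), and the alpha globin Hba-a1 had a log2 fold change of -0.85 and did not pass (adjusted p = 0.16).

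The remaining lists held 0 called genes: Cajal-Retzius cells, oligodendrocyte lineage, microglia, endothelium, pericytes, meningeal fibroblasts, choroid plexus, the erythroid list, glycolysis and hypoxia, cholesterol synthesis, the respiratory chain, mitochondrially encoded genes, interferon and antigen presentation, ion channels and neurotransmitter receptors. Of these, glycolysis and hypoxia had 21 of 27 fold changes below 0, with a median of -0.12, and its nearest gene was Ldha, lactate dehydrogenase (log2 fold change -0.24, edgeR adjusted p = 0.0682). The microglia and oligodendrocyte lists had medians of -0.75 and -0.30. A difference in these lists was not detectable at this depth, which does not show that there was none.

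The genes called in PB-CCN1 were then read in CcKO against WT, to set gain of CCN1 beside its loss. These groups share no library with the comparison, but their libraries entered the fit that called the genes and helped set its spread. The overlap is therefore not between independent tests. There, 4663 genes were called (30.3%), of which 2676 were higher (17.4% of those tested) and 1987 lower (12.9%). Of the 115 genes lower in PB-CCN1, 46 were higher in CcKO (40.0%), 12 were lower (10.4%) and 57 did not pass, with a median log2 fold change of 0.27 against 0.02 for all genes. These 46 are 1.72% of all genes higher in CcKO. Of the 67 genes higher in PB-CCN1 other than Ccn1, 11 were higher in CcKO (16.4%), 10 lower (14.9%) and 46 did not pass. Tnc stood at 186 and 163 CPM in WT and at 308 and 309 CPM in CcKO, the opposite direction to its fall in PB-CCN1 (log2 fold change 0.82, adjusted p = 7.14e-11). Notch2 stood at 39.1 and 30.7 CPM in WT and at 62.7 and 76.7 CPM in CcKO, and Notch1 at 61.8 and 58.6 CPM against 123 and 139 CPM. Gas1, Gli3, Ccnd1, Kmt2d, Chd7, Nes, Slc1a3, Pole, Mcm3 and Top2a were likewise lower in PB-CCN1 and higher in CcKO, while Gli1 (0.45, adjusted p = 0.051) and Ccn2 (0.66, adjusted p = 0.0688) did not pass in CcKO. Jun, Bcan, Id4, Atf3, Ahcy and Unc5c did not pass there either, with log2 fold changes of 0.05, 0.10, 0.23, 0.17, 0.05 and 0.19. Among the 12 genes lower in both comparisons were Mat2a (log2 fold change -0.25 in CcKO, edgeR adjusted p = 0.00398) and Rpl15-ps6 (-0.94, adjusted p = 0.0415). Slc7a11 was higher in both comparisons, with 2.13 and 1.61 CPM in WT and 1.65 and 7.75 CPM in CcKO, where the groups overlapped. In CcKO against WT fold changes rose with gene length (Spearman's rho over 15371 genes 0.43, against -0.09 in PB-CCN1), and genes are not independent replicates. With the length and GC trend removed from both comparisons, an alternative chosen after the data were seen, 27 of 116 genes lower in PB-CCN1 were higher in CcKO (23.3%, against 10% of all genes) and 11 were lower. Of the 81 genes then higher in PB-CCN1, 4 were higher in CcKO (4.94%) and 12 lower (14.8%, against 8.08% of all genes). Strain, age and day of electroporation differ between the experiments.

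**Figure D5:**
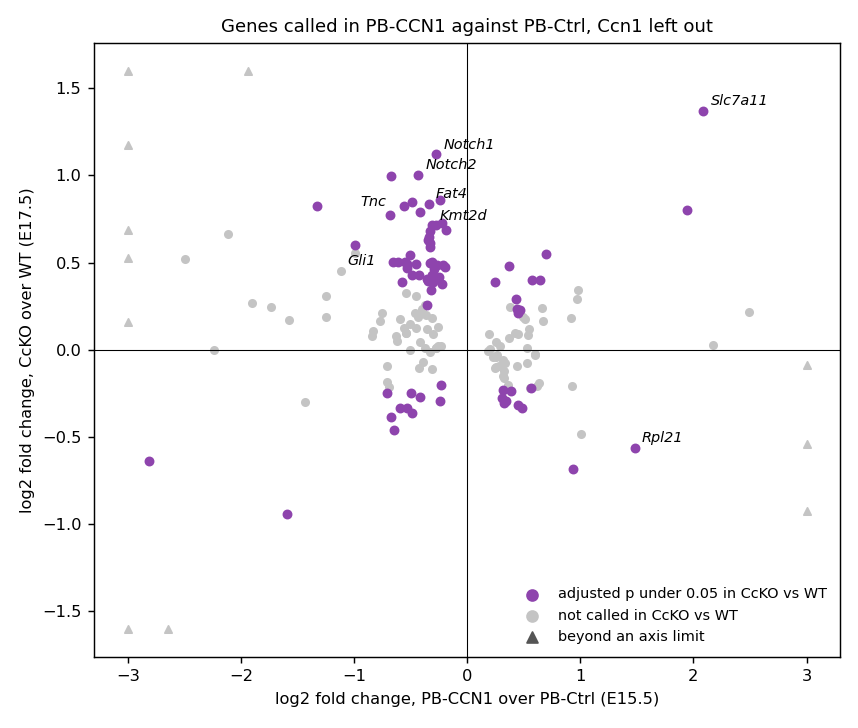
Each point is a gene called in PB-CCN1 against PB-Ctrl other than Ccn1, with its log2 fold change there on the x axis and its log2 fold change in CcKO against WT on the y axis. Purple points passed in CcKO against WT, 46 of the 115 genes on the left being higher there, and triangles lie beyond an axis limit.

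PB-CCN1 was last compared directly with PB-GPC4, the other matrix-acting cargo. Of 15371 genes 215 were higher (1.40%) and 116 lower (0.755%) in PB-CCN1, 331 in all (2.15%), but the split depended on scaling: it was 184 and 144 with RLE size factors, 203 and 206 with DESeq2, and 177 and 172 with the length and GC trend removed. The rises included Ccn1, and the falls Gpc4, the cargo of PB-GPC4. All 13 tested genes of the lung epithelium list were also among the rises (highest edgeR adjusted p = 0.0279). Scgb1a1 stood above Ccn1 there, with log2 fold changes of 13.0 and 7.74. The part of these lung transcripts in the comparison was not tested. The microglial genes Csf1r, C1qc and Spp1 were also lower in PB-CCN1 (edgeR adjusted p = 0.0423, 0.0229 and 0.0338). The call of Csf1r was lost on leaving out any 1 of the 6 E15.5 libraries, and that of Spp1 on leaving out any 1 of 4 of them, and that of C1qc on leaving out any 1 of 3. Csf1r stood at 0.896 and 0.517 CPM in PB-CCN1 and at 2.42 and 2.56 CPM in PB-GPC4, and the 12 microglia markers summed to 12.8 and 16.4 CPM in PB-GPC4. Of 25 immediate-early genes 11 were higher in PB-CCN1 and 0 lower, with a median of 0.35, and of 22 unfolded protein response genes 6 were lower and 0 higher, with a median of -0.18. PB-CCN1 and PB-GPC4 were each set against the same 2 PB-Ctrl libraries, so a level at which both differ from PB-Ctrl, as for Hspa1b, Ccn2, Gli1, Tnc and Slc7a11, rests on those 2 libraries. The same holds for Notch2, Notch1, Nes, Id4, Slc1a3, Bcan, Gas1, Gli3, Kmt2d, Chd7 and Plagl1, where both PB-GPC4 libraries were below both PB-Ctrl libraries. They were also below for Pole, Mcm3, Jun, Mat2a, Unc5c, Gja1 and Atf3. For the rises of Myc, Nkd1, Wnt7b, Tubb2b, Rps2, Hspa5 and Slc7a3, both PB-GPC4 libraries were above both PB-Ctrl libraries. The genes named here are examples, not a full list.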

How the data were processed

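The authors deposited raw read counts per Entrez gene ID and FPKM, counts scaled by gene length and library total. Per the submitters' processing notes, the tools named are HISAT2, featureCounts, Trimmomatic and bcl2fastq, and the build is mm10; versions, strand setting and treatment of multi-mapped reads are not given in the sources used here. Libraries were mRNA libraries from TRIzol-extracted RNA, per the labels' protocols. IDs were named from RefSeq (25274) and GENCODE M21 (18), and 1886 stayed unnamed.

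Counts were tested with edgeR 4.0.16 (R 4.3.3): TMM, filterByExpr, 5 group means in 1 quasi-likelihood model of all 10 libraries (5 residual degrees of freedom, common dispersion 0.00385), two-sided, Benjamini-Hochberg over 15371 genes, threshold 0.05, no minimum fold. This shared spread is an assumption for the 2-library groups. CPM values are TMM-normalised, and the SE of a log2 fold change follows from the F statistic. The script was tested on simulated data. No intervals of counting error were computed. Replicates differed by more than counting error (chi-square per degree of freedom 3.40 to 9.09).

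Named genes were Ccn1 and Gpc4, the 15 largest called rises and 15 falls with a mean of at least 1 CPM, up to 4 called members of each list (or the nearest ones where none was called) and 8 genes per direction against PB-GPC4; called genes outside the rule are marked as chosen after their values were seen, and so were list members shown without a call. The comparison, lists and rule were chosen with earlier results of these data known. Lists were described by counts and medians, without a set test. Alternatives were RLE size factors, no filter, a replicate block, removal of a length and GC trend (lowess span 0.3), DESeq2 1.42.0, limma 3.58.1 on log2(FPKM + 1), fewer libraries in the fit, a minimum fold of 1.5 and each library left out.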

Additional observations from a re-analysis of the deposited data

How the results depend on the processing

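The count of genes called between PB-CCN1 and PB-Ctrl, 183, was 298 without a filter on low counts, 34 with limma on log2(FPKM + 1), 537 with the 6 E15.5 libraries alone, 632 with the 4 libraries alone, 64 with a minimum fold of 1.5, and 56 to 283 on leaving out 1 library. It was 202 with the replicate block, which shared 180 calls, and 185, 198 and 212 with RLE size factors, the trend removed and DESeq2. Limma shared 30 calls, and the losses given above for single genes mostly leave limma out. Gli1, Plk2, Jun, Nkd1, Tppp, Dner, Unc5c and Kmt2d were among the calls lost with limma. List members called, 42 in all, were 67 without a filter, 9 with limma, 110 and 122 with the 6 or 4 libraries alone, and 14 to 65 on leaving out 1 library. Against PB-GPC4, 331 calls became 589, 76 and 990 without a filter, with limma and with the E15.5 libraries alone, and 77 to 596 on leaving out 1 library. For CcKO against WT, 4663 became 2779 with the length and GC trend removed, 2738 with the replicate block as well, and 2919 to 4585 on leaving out 1 library. The replicate numbers did not pair the libraries: deviations of same-numbered libraries correlated at 0.018, -0.016 and -0.005 between the E15.5 groups and -0.003 at E17.5. For named genes, 241 of the alternative values lost a call, 81 gained one, 1975 kept theirs and 0 reversed; the cause of each was not tested. Small called folds rest on 2 libraries a group, and low genes on few counts.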

Other observations

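Further called genes, chosen after their values were seen, are given as values. Sall3, a zinc finger factor, stood at 38.7 and 40.0 CPM in PB-Ctrl, 24.1 and 24.9 CPM in PB-CCN1, 25.1 and 23.5 CPM in PB-GPC4, 27.4 and 27.3 CPM in WT and 46.1 and 47.3 CPM in CcKO, a fall of 1.61-fold in PB-CCN1 (edgeR adjusted p = 3.11e-05). The giant cadherins Fat4 and Fat1 fell 1.26- and 1.18-fold and were higher in CcKO than in WT by 0.84 and 0.86 on the log2 scale. Rnf213, a large ubiquitin ligase, fell 1.99-fold, from 56.4 and 52.7 CPM to 28.6 and 26.1 CPM (adjusted p = 9.21e-06), with 33.9 and 42.4 CPM in PB-GPC4.

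The arrestin-domain genes Txnip and Arrdc3 rose together, 1.51- and 1.34-fold. Txnip stood at 13.7 and 14.8 CPM in PB-Ctrl, 22.3 and 20.7 CPM in PB-CCN1 and 25.1 and 31.9 CPM in PB-GPC4 (adjusted p = 0.0141 for PB-CCN1 over PB-Ctrl). The classical cadherins Cdh4 and Cdh8 rose 1.29- and 1.19-fold, and Cdh4 stood at 189 and 197 CPM in PB-Ctrl and 242 and 257 CPM in PB-CCN1 (adjusted p = 0.000201). The synaptic adhesion genes Slitrk1 and Slitrk2 moved in opposite directions: Slitrk1 rose 1.36-fold, from 45.9 and 48.3 CPM to 65.3 and 62.8 CPM, and Slitrk2 fell 1.41-fold, from 25 and 23.5 CPM to 16.1 and 18.5 CPM (adjusted p = 0.0315).

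A transcript of airway secretory cells, Scgb3a2, held 46 and 82 counts in PB-Ctrl and 56 and 62 counts in PB-CCN1, and Cyp2f2, a cytochrome P450 of club cells, 181, 228, 171 and 152 counts. Cyp2f2 held 0 counts in the other 6 libraries.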
